A study of Mus musculus with 40 samples.

Results

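The 10 genes described here are markers of macrophages, the phagocytes that live in brown adipose tissue and enter it from the blood: Adgre1, Itgam, Itgax, Cd14, Cd68, Csf1r, Mrc1, Trem2, Ccl2 and Tnf. They are known markers of the cell type, and are 10 of the 21938 protein-coding genes of the annotation used. Histone marks were mapped by ChIP-seq, the sequencing of chromatin pulled down with an antibody, in whole brown fat of 20-week-old C57BL/6N mice, a wild type inbred strain. Mice 1 and 2 were kept warm on normal chow diet (NCD), mice 4 and 5 ate NCD and spent 24 h at 4 °C, mice 7 and 8 were warm on a high fat diet (HFD), and mice 10 and 11 were cold on HFD. HFD was given for 12 weeks from the age of 8 weeks, and the warm temperature is not given as a number in the labels. Each of the 4 conditions therefore had 2 mice, and each diet and each temperature had 4. The depot is labelled iBAT, which the methods spell out as interscapular and the design text as inguinal. The methods leave unclear whether a library came from 1 mouse or from pooled tissue, so p-values measure the spread between libraries, each called a mouse here. The question was which of these genes carry a mark in bulk chromatin, and whether that depended on diet or temperature.

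H3K4me3 marks the starts of active or poised genes. H3K27ac marks active starts and enhancers, H3K4me1 marks enhancers, and H3K27me3 marks genes repressed by Polycomb. Resident macrophages clear debris and spent mitochondria in brown fat, and obesity is known to bring monocyte-derived macrophages into white fat and, to a lesser degree, brown fat. In a bulk sample, a mark on genes of a minority cell type is diluted by the chromatin of all other cells. Fewer cells of a type and less mark per cell cannot be told apart.

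The 32 peak lists, 1 for each of the 4 marks in each of the 8 mice, differed widely in length. H3K4me3 lists held 13517 to 24104 peaks, H3K27ac lists 3224 to 40604, H3K4me1 lists 12 to 27568 and H3K27me3 lists 20 to 6428. Mouse 7 had the shortest H3K4me3, H3K27ac and H3K4me1 lists. The number of reads behind a list is unknown, so the absence of a peak was read only as not called at that depth. Each peak carries a fold enrichment over the input (chromatin sequenced without an antibody), computed by the authors. As a check of the labelled tissue, 12 of 12 brown adipocyte markers had an H3K4me3 peak within 1 kb of an annotated start, 11 of them in 8 mice. Of all protein-coding genes, 64.9% had such a peak in at least 1 mouse and 43.3% in 8 mice.

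Over the gene bodies and 10 kb each side, 103 peaks of the 4 marks were found for the 10 macrophage genes. Of these, 98 (95.1%) lay at Cd14, Cd68 and Tnf. Only 27 (26.2%) were within 1 kb of the start of the macrophage gene itself, and 68 (66.0%) were at the start of a neighbouring gene and not at its own. Another 5 were elsewhere in the gene body and 3 in the flank. H3K4me3 gave 52 peaks, H3K27ac 41, H3K4me1 8 and H3K27me3 2. The sum over a mouse's 4 lists ran from 5 peaks in mouse 7 to 17 in mouse 11.

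**Figure D1:**
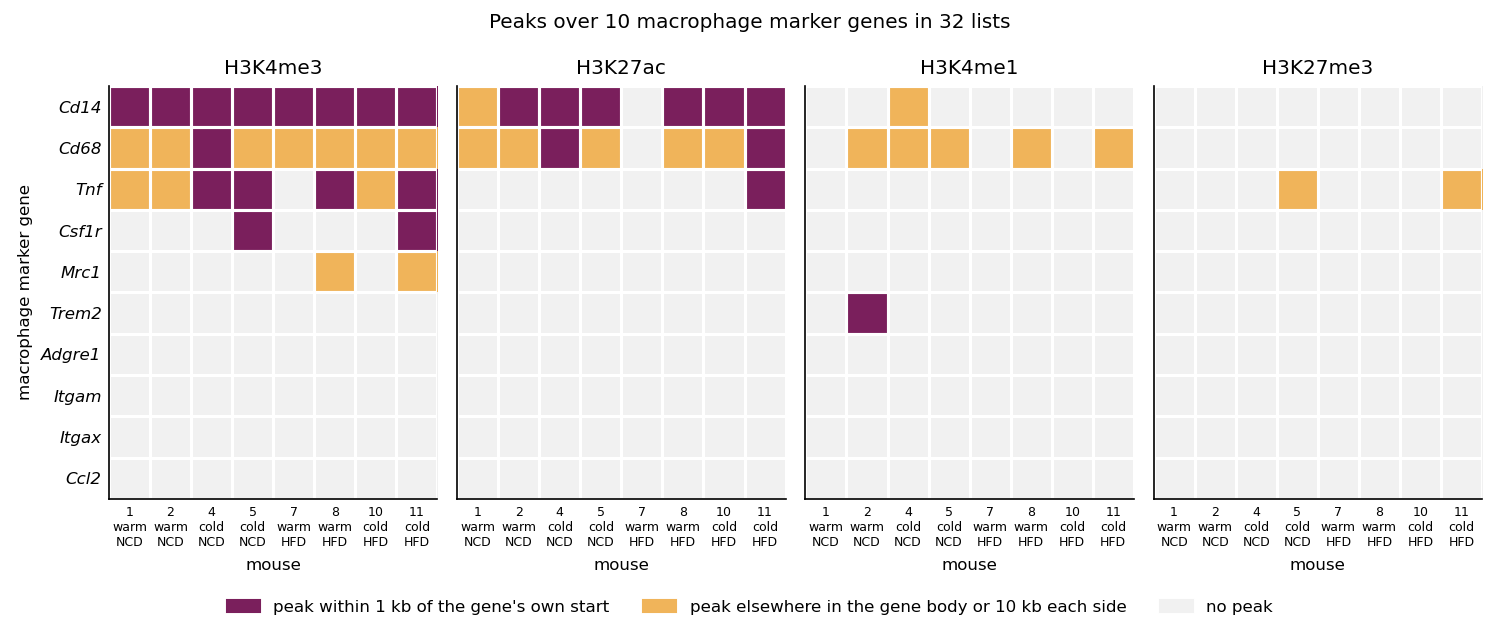
Presence of a peak over each of the 10 genes (rows) in each mouse (columns), by mark. Dark cells have a peak within 1 kb of the gene's own start, light orange cells only elsewhere in the gene body or the 10 kb each side, and grey cells none. Cd14 carried H3K4me3 at its start in 8 of 8 mice, and Adgre1, Itgam, Itgax and Ccl2 had no peak in any list.

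Promoter sequences are shown for 4 of the genes because they span what was found: Tnf, with H3K4me3 at its start in some mice; Cd68, mostly marked at its neighbours; Trem2, with a single H3K4me1 peak; and Itgax, with no peak. RefSeq's promoter table (GRCm38.p6) held 6 of the 10 genes, namely Cd68, Itgam, Itgax, Tnf, Mrc1 and Trem2. Each sequence below runs 5′ to 3′ in the direction of transcription and ends just before the start in RefSeq, or in GENCODE where that came first. Capitals mark matches, on either strand, to the 5 motifs searched: GAGGAAGT (bound by PU.1, the master regulator of myeloid cells), TATAAA (the TATA box), TGAGTCA (AP-1), the NF-kB site of the immunoglobulin kappa enhancer and CACGTG (E-box). The matches did not overlap.
Tnf, chr17:35202008-35202257, minus strand: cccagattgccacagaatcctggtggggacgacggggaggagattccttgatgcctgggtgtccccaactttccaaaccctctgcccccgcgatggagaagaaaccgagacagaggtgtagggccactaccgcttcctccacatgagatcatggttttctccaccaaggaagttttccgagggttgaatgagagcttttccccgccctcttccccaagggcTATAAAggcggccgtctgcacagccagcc
Cd68, chr11:69666171-69666420, minus strand: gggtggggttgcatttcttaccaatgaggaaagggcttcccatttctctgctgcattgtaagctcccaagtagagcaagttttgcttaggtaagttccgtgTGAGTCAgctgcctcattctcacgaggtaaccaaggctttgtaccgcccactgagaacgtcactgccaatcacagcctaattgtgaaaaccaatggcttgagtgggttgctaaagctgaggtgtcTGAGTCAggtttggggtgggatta
Trem2, chr17:48346151-48346400, plus strand: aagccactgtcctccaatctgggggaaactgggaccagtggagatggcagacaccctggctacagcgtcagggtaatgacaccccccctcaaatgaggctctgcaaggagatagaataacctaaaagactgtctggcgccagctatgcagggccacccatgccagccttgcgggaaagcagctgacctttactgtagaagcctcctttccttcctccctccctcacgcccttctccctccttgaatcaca
Itgax, chr7:128129300-128129546, plus strand: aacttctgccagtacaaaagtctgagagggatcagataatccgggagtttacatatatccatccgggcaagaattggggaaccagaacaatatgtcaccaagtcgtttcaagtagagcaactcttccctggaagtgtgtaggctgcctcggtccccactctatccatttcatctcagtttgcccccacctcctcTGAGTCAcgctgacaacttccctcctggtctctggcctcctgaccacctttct

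Tnf had a TATAAA beginning 29 bases before its start, letters found in 13.6% of the 32851 promoters of the table. Cd68 had TGAGTCA at 149 and at 24 bases before its RefSeq start, and Itgax had it at 56 bases. This motif occurs in 5.20% of all promoters. None of the 6 promoters held GAGGAAGT (3.20% of all), the NF-kB site (0.155%) or CACGTG (7.15%), which says only that these letters are not in these windows.

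The 10 genes have a low CpG content at their starts, as most of the other marker lists do. CpG observed over expected, the frequency of CG relative to that from the C and G content, was computed from 250 bases before to 50 after the first annotated start. It ran from 0 at Csf1r to 0.436 at Tnf, with a median of 0.234 against 0.552 over all protein-coding genes. All 10 were thus below the median of all genes. The medians of the other lists of cell type or inflammatory genes were close to theirs, with 0.272 for other macrophage genes, 0.219 for lymphocyte, 0.273 for endothelial and 0.314 for brown adipocyte genes. Of all genes with a value under 0.25, 17.1% had H3K4me3 at the start in at least 1 mouse and 7.08% in 8 mice. These shares were 50.8% and 24.7% between 0.25 and 0.5, and 97.8% and 76.1% at 0.75 or more. Of the 6 macrophage markers under 0.25, 2 had such a peak in at least 1 mouse, as had 2 of the 4 between 0.25 and 0.5. Among brown adipocyte genes, Fabp4, a fatty acid carrier, was at 0 and Lipe, the hormone-sensitive lipase, at 0.0548. Both had H3K4me3 at the start in 8 mice. The part of CpG content in the missing peaks of the macrophage markers was not tested.

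**Figure D2:**
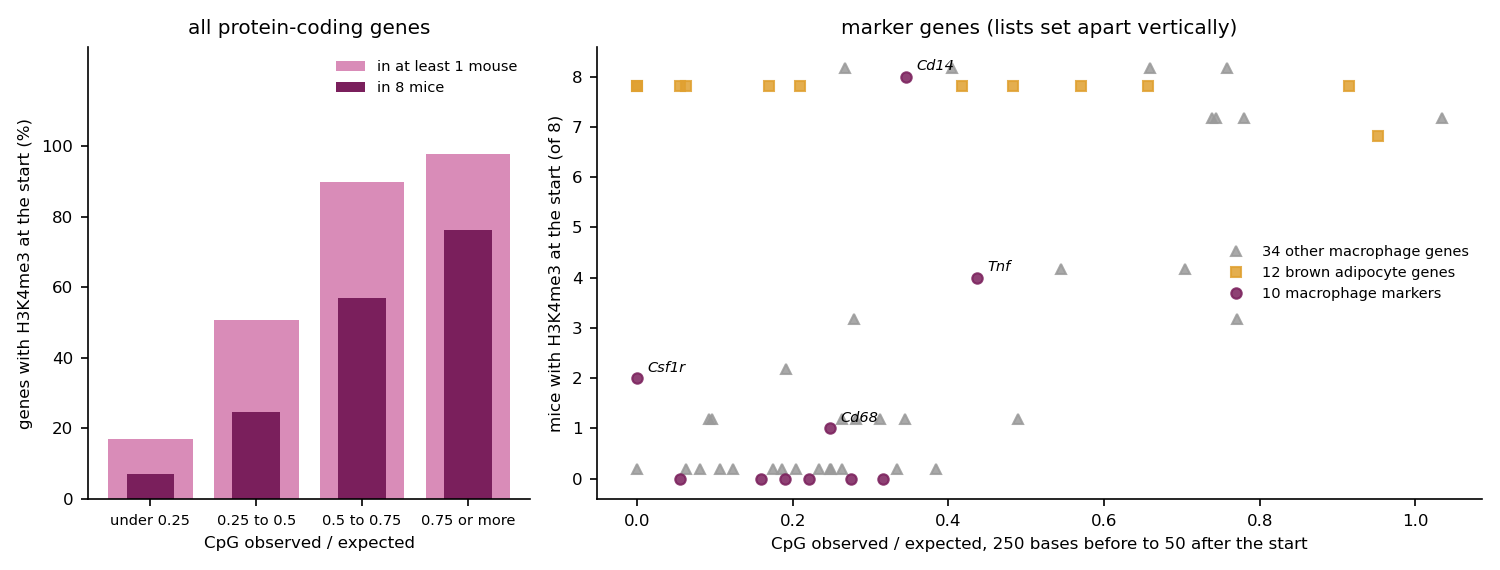
Left, share of all protein-coding genes with H3K4me3 within 1 kb of a start, in at least 1 mouse (wide bars) and in 8 mice (narrow bars), by CpG observed over expected. Right, number of mice with that peak against CpG observed over expected for the 10 macrophage markers (circles), 34 other macrophage genes (triangles) and 12 brown adipocyte genes (squares), with the lists set slightly apart vertically. All 10 markers lie at 0.436 or below, and brown adipocyte genes reach 7 or 8 mice at any CpG value.

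Cd14, the co-receptor for bacterial lipopolysaccharide on monocytes and macrophages, was the only one of the 10 with a mark at its start in every mouse. Bulk chromatin cannot show which cells carried the mark at Cd14. The gene (ENSMUSG00000051439.7) is 1732 bp long on the minus strand of chromosome 18, from 36725067 to 36726798. H3K4me3 fold enrichment at the start was 23.6 and 25.0 in the warm NCD mice 1 and 2, 25.5 and 30.9 in the cold NCD mice 4 and 5, 3.75 and 5.84 in the warm HFD mice 7 and 8, and 7.08 and 17.1 in the cold HFD mice 10 and 11. The folds of all 4 NCD mice were above those of all 4 HFD mice. Folds depend on the depth of a list, and the share of all genes separated in this way was not counted. The neighbouring gene Tmco6, whose start lies 8.27 kb upstream of that of Cd14, moved with it between mice, with folds of 24.2 to 67.2 on NCD and 4.46 to 29.7 on HFD. Within a list, the ratio of the Cd14 fold to the Tmco6 fold was 0.460 to 1.03 on NCD and 0.494 to 1.22 on HFD, so the diets overlapped. The percentile of Cd14 among all genes within a list, at the start, also overlapped, with 62.9, 61.7, 79.7 and 50.1 in mice 1, 2, 4 and 5 on NCD and 63.9, 47.6, 60.9 and 54.2 in mice 7, 8, 10 and 11 on HFD.

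The Cd14 peaks were 794 to 1587 bp wide and lay over the gene itself, with summits 499 to 1043 bp past the start. Their place among all H3K4me3 peaks of their own list ran from the 21.3rd percentile of fold in mouse 7 to the 79.9th in mouse 4. H3K27ac was present at the Cd14 start in 6 mice: 2, 4, 5, 8, 10 and 11, with folds of 3.27 to 8.14. Mouse 1 had H3K27ac at Tmco6 but not at Cd14, and mouse 7 had it at neither. H3K4me1 was called in the gene body in mouse 4 only, and H3K27me3 in no mouse.

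Cd68 encodes a lysosomal glycoprotein used as a general macrophage stain. It is 1941 bp long (ENSMUSG00000018774.13, chromosome 11, 69664213 to 69666153, minus strand) and sits between genes that most cells use: Mpdu1, a glycosylation factor starting 3.51 kb downstream of the start of Cd68, and Eif4a1, a translation initiation helicase starting 6.16 kb upstream. The window therefore had H3K4me3 in 8 mice, H3K27ac in 7 and H3K4me1 in 5, but 20 of its 21 H3K4me3 peaks were at other genes' starts. These included the small RNA genes Mir1934 and Gm22988 and, in mouse 5, Sox15. At the start of Cd68, H3K4me3 was called in mouse 4 only, with a fold of 5.06, the 13.2nd percentile of that list. H3K27ac reached within 1 kb of the start in mice 4 and 11. In mouse 11 this was the edge of a peak 4092 bp wide with its summit at Mpdu1.

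Within the Cd68 gene body, without flanks, H3K27ac was called in all 4 cold mice and in none of the 4 warm mice. In mice 4, 5 and 11 a peak of 2318 to 4092 bp ran from within 1 kb of the Mpdu1 start into Cd68, and mouse 4 had another of 418 bp inside the gene. In mouse 10 it was a separate peak of 219 bp at the 3′ end of Cd68. The same all-against-none pattern was found for 18 genes, all in the cold direction, of the 11748 with a gene body peak (0.153%). The two-sided Fisher's exact test gave p = 0.0286 for each of them, the smallest it can give with 4 mice a group. The adjusted p was 1 and could not be lower with so few genes at that p. The share of all genes with H3K27ac in the body was 5.43% to 46.7% in warm and 21.5% to 48.2% in cold mice. With the 10 kb flanks, Cd68 had H3K27ac in 3 warm and 4 cold mice, so the pattern belongs to the gene body window.

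**Figure D3:**
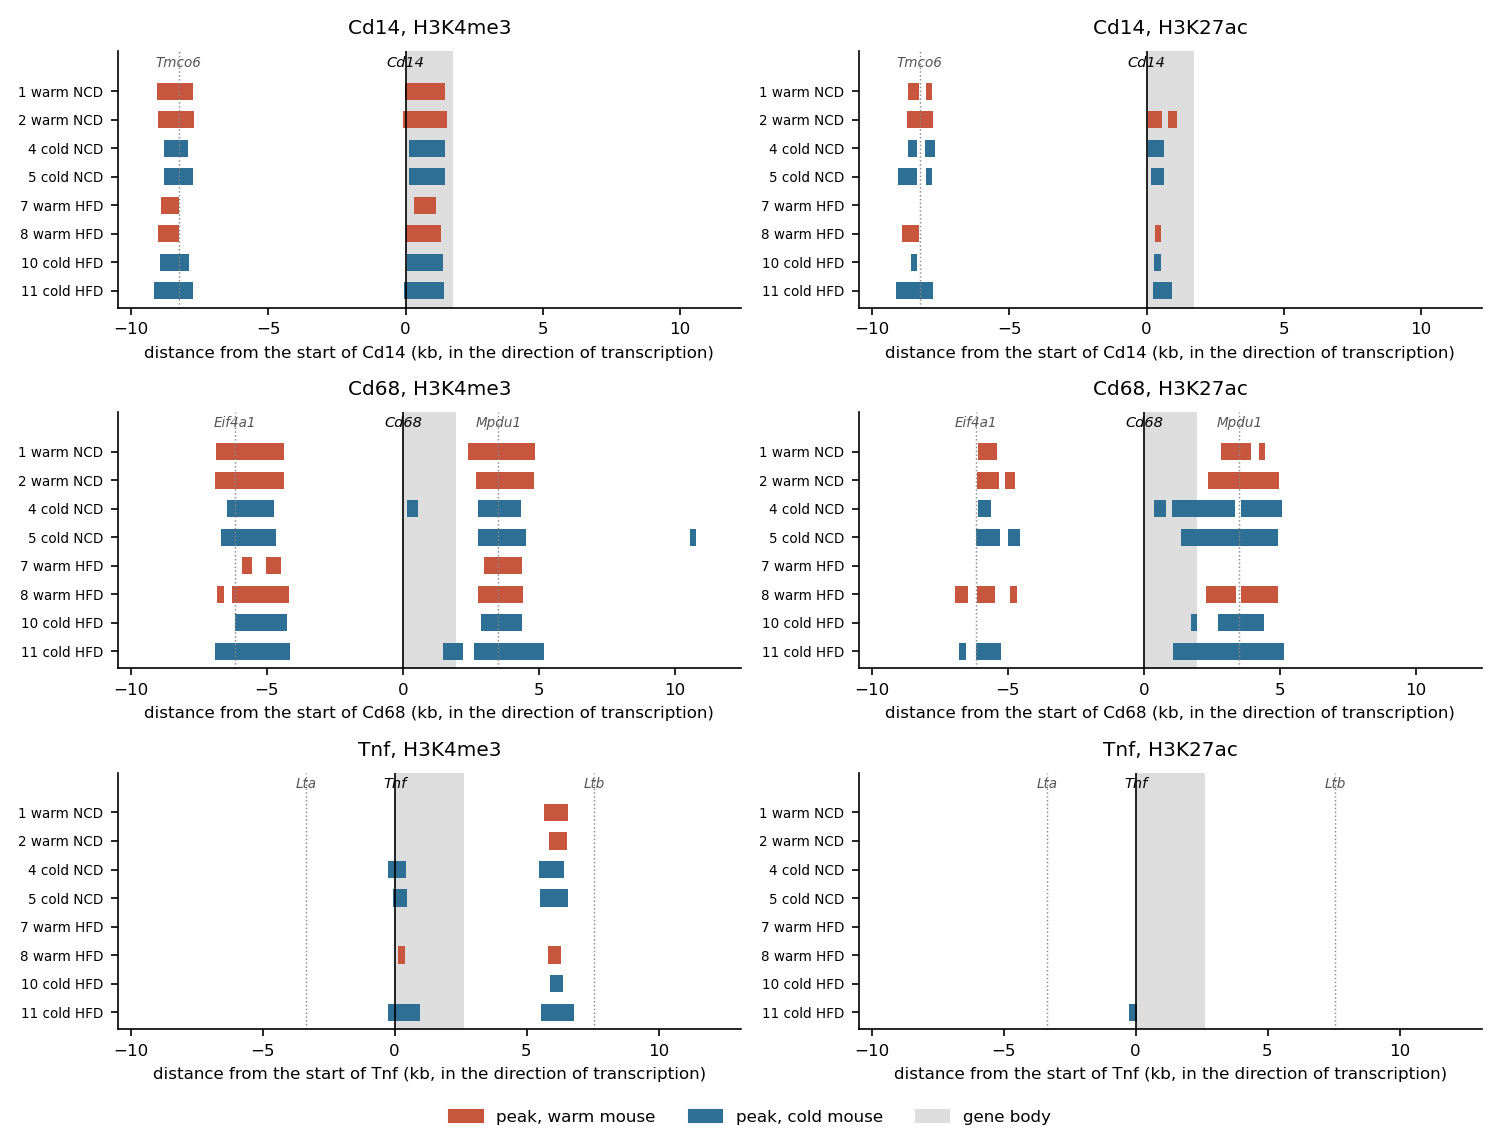
Peaks of H3K4me3 (left) and H3K27ac (right) around Cd14, Cd68 and Tnf in each mouse, by distance in kb from the gene's start in the direction of transcription. Bars are peaks, coloured by temperature, the grey band is the gene body and dotted lines are first annotated starts of neighbouring genes. Peaks at Tmco6, Mpdu1 and Eif4a1 recur in nearly every mouse, whereas H3K4me3 at the start was called in 1 mouse for Cd68 and in 4 for Tnf.

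Tnf, the inflammatory cytokine secreted by activated macrophages, had H3K4me3 at its start in 4 mice. The gene (ENSMUSG00000024401.14) lies on chromosome 17 from 35199381 to 35202007, minus strand. Fold enrichment was 10.6 in mouse 4 and 5.51 in mouse 5 (cold NCD), 4.04 in mouse 8 (warm HFD) and 6.18 in mouse 11 (cold HFD). Both diets thus had 2 mice with the peak, and the temperatures had 1 warm and 3 cold mice. The peaks of mice 4, 5 and 11 reached over the TATA box of the sequence printed above. H3K27ac at the start was called in mouse 11 alone, with a fold of 3.29. With flanks, H3K4me3 was present in 7 mice, all but mouse 7, because of peaks beside an annotated start of Ltb, which encodes lymphotoxin beta. The only H3K27me3 peaks at any of the 10 genes were in this flank, in mice 5 and 11, which had the longest H3K27me3 lists.

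Ccl2, the chemokine that draws monocytes into tissue, had no peak of any mark within its window (ENSMUSG00000035385.5, chromosome 11, 82035571 to 82037453). The nearest H3K4me3 peak was 22361 to 728143 bp from its start, depending on the mouse.

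The remaining receptors were marked in few mice. Csf1r, the receptor for the macrophage growth factor CSF1 (ENSMUSG00000024621.16, chromosome 18, 61100598 to 61132149), had H3K4me3 at its start in the cold mice 5 and 11, with folds of 5.13 and 3.78. These peaks were 218 and 247 bp wide and ranked at the 7.39th and 7.75th percentile of their lists. Mrc1, the mannose receptor of tissue-resident macrophages (ENSMUSG00000026712.3, chromosome 2, 14229392 to 14332057), had H3K4me3 in an intron 66.3 kb from its start in the HFD mice 8 and 11. The folds were 3.94 and 5.50, and no peak lay at the start. Trem2, a lipid-sensing receptor of macrophages in obese fat (ENSMUSG00000023992.14, chromosome 17, 48346401 to 48354147), had a peak of H3K4me1 at its start in mouse 2 only, with a fold of 4.33 and a −log10 q of 1.85. The peak spans 48345974 to 48346202 and so overlaps the first bases of the sequence printed above.

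Adgre1, which encodes the surface marker F4/80, and the integrin subunits Itgam (CD11b) and Itgax (CD11c) had no peak in any of the 32 lists. Adgre1 (ENSMUSG00000004730.15, chromosome 17, 57358691 to 57483527) had its nearest H3K4me3 peak 78793 to 81638 bp from the start. Itgam (ENSMUSG00000030786.18, chromosome 7, 128062640 to 128118491) had it at 68691 to 93957 bp, and the neighbouring Itgax (ENSMUSG00000030789.9, chromosome 7, 128129547 to 128150657) at 107122 to 107716 bp. The windows of Itgam and Itgax overlap, so their absence of peaks is not independent.

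At their own starts, 4 of the 10 genes thus had H3K4me3 in at least 1 mouse and 1 in 8 mice, against 64.9% and 43.3% of all protein-coding genes. All 10 have a CpG observed over expected below 0.5, where the shares of all genes were lower. They were 17.1% and 7.08% under 0.25, and 50.8% and 24.7% from 0.25 to 0.5. For H3K27ac, 3 of 10 had a peak at the start in at least 1 mouse, against 49.6% of all genes, and for H3K4me1 1 of 10 against 22.4%. H3K27me3 was at no start of the 10 and at 6.89% of all. By mouse, that share of all genes was 6.56% in mouse 5, 1.50% in mouse 11 and at most 0.219% in the others. For H3K4me1 it ran from 0% in mice 7 and 10 to 13.8% in mouse 5. In the 15 combinations of gene and mouse with H3K4me3 at the start, 8 (53.3%) also had H3K27ac there, against 55.8% over all genes. Cd14 alone gave 8 of the 15 combinations and 6 of the 8 with H3K27ac. Of 12 brown adipocyte genes, 12 had H3K4me3 at the start in at least 1 mouse, among them Cidea, Dio2, Fabp4 and Lipe in 8 mice, and so had 8 of 8 endothelial genes. The 12 lymphocyte genes had none, and 3 of 12 granulocyte, mast cell and dendritic cell genes had one. The 8 genes of other organs gave 2, Neurog2 and Syn1, each in 6 mice, without H3K27ac at the start.

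**Figure D4:**
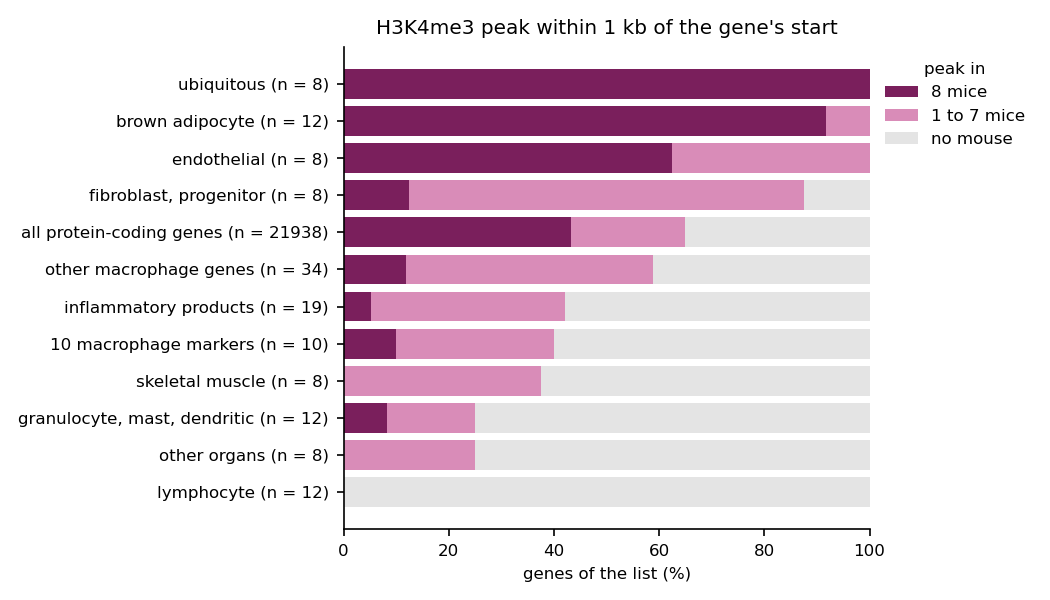
Share of the genes of each marker list with H3K4me3 within 1 kb of a start in 8 mice (dark), in 1 to 7 mice (light) and in no mouse (grey), with the number of genes in brackets. The 10 macrophage markers reach 40.0% in at least 1 mouse, below all protein-coding genes at 64.9%, and brown adipocyte genes reach 100%. The share for all genes is not matched for CpG, which is low at all 10 markers. It was 17.1% for CpG observed over expected under 0.25 and 50.8% from 0.25 to 0.5.

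A list of 34 other macrophage genes was also examined. In at least 1 mouse, 20 of 34 (58.8%) had H3K4me3 at the start, and 4 had it in 8 mice. Among them were Mertk, a receptor for dying cells, Sirpa, which reads the do-not-eat-me signal, and H2-Ab1, which presents antigen. Other cell types are known to use these genes as well. Of 83 combinations of gene and mouse with H3K4me3 at the start in this list, 23 (27.7%) also had H3K27ac. Chosen after their values were seen, Spi1, which encodes PU.1, and Laptm5, a lysosomal protein of blood cells, had H3K4me3 at the start in mice 4, 5 and 11, which are cold mice and have the 3 longest H3K4me3 lists. The part of list length was not tested. Their folds were 3.55 to 8.60 and 4.47 to 9.76. Of 19 inflammatory products, 8 had H3K4me3 at the start in at least 1 mouse, and Csf1, the ligand of the receptor Csf1r, had it in 8. The cytokine Tgfb1 and the chemokines Cxcl1 and Cxcl10 had it in 7, all but mouse 7.

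By temperature, the number of the 10 macrophage markers with H3K4me3 at the start was 1, 1, 1 and 2 in the warm mice 1, 2, 7 and 8 and 3, 3, 1 and 3 in the cold mice 4, 5, 10 and 11. The groups overlapped. The 34 other macrophage genes gave 8, 9, 4 and 8 in warm and 14, 14, 9 and 17 in cold mice, which met at 9. Cold mice also had longer lists, with 17195 to 24104 H3K4me3 peaks against 13517 to 21024 in warm mice, and 54.3% to 63.5% of all genes had a peak at the start against 43.6% to 61.0%. When every list was cut to its 13517 peaks of highest −log10 p, the length of the shortest, Cd14 was the only marker left in every mouse. The other macrophage genes then numbered 4 to 8 in warm and 5 to 8 in cold mice, with a mean of 6.75 in both. The cut removes the weakest peaks of each longer list. With Cd14 alone left among the markers, their equal counts cannot show whether temperature made a difference.

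**Figure D5:**
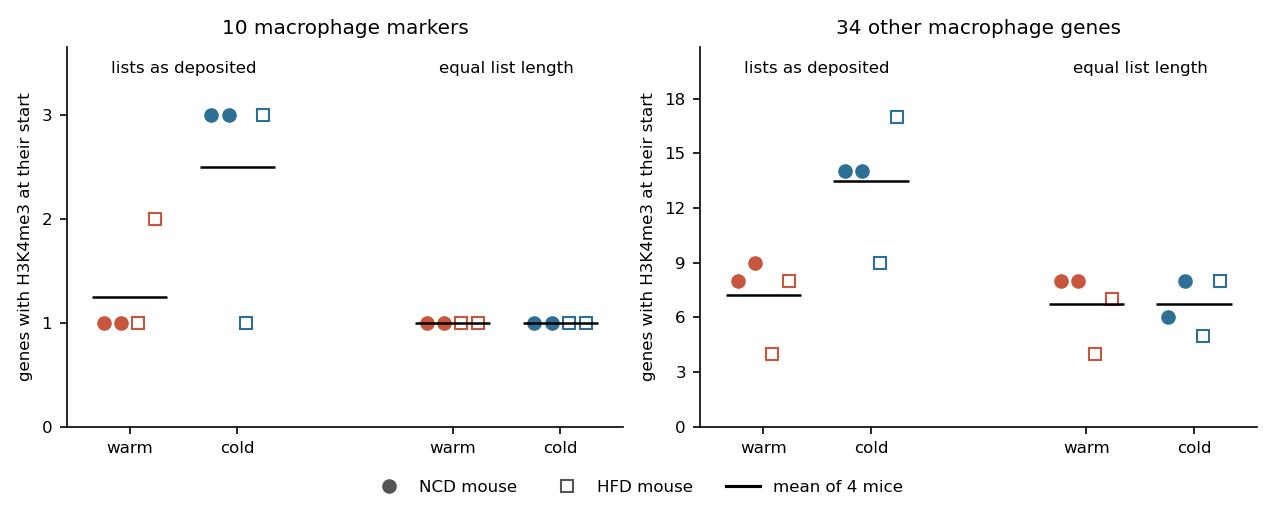
Number of macrophage markers (left, of 10) and of other macrophage genes (right, of 34) with H3K4me3 at their start in each mouse, by temperature. Filled circles are NCD mice, open squares HFD mice and lines the mean of 4 mice. With lists as deposited the means were 1.25 and 2.50 for the markers and 7.25 and 13.5 for the other genes in warm and cold mice, and with lists of equal length they were the same at both temperatures. At equal length Cd14 was the only marker left in each mouse, so the marker means cannot show a difference between temperatures.

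By diet, markers with H3K4me3 at the start numbered 1, 1, 3 and 3 on NCD and 1, 2, 1 and 3 on HFD, and other macrophage genes 8, 9, 14 and 14 against 4, 8, 9 and 17. In both lists the diets overlapped. Of all protein-coding genes, 60.1% to 63.5% had H3K4me3 at the start in NCD mice and 43.6% to 61.9% in HFD mice.

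Presence in the window was tested gene by gene, 4 mice against 4, over all genes with a peak in at least 1 mouse by a two-sided Fisher's exact test, whose smallest p is 0.0286. None of the 10 markers had a peak in all mice of a group and in none of the other, for any mark. Over all genes, this pattern was rare. For diet it held for 0.161% of 16183 genes with H3K4me3, 0.123% of 13872 with H3K27ac, 0.0607% of 11539 with H3K4me1 and 0.0336% of 2975 with H3K27me3. For temperature the shares were 0.0433%, 0.101%, 0% and 0%. The genes with this pattern were the only ones with an unadjusted p under 0.05, and their adjusted p was 1. An adjusted p under 0.05 would have needed the pattern in most of the genes tested. With a pattern this rare, the adjusted test could not call any gene. Among the markers the smallest unadjusted p by the exact test was 0.429, for Csf1r H3K4me3 in 0 warm and 2 cold mice, Mrc1 H3K4me3 in 0 NCD and 2 HFD mice and Tnf H3K27me3 in 0 warm and 2 cold mice.

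Among the other macrophage and inflammatory genes, 2 showed the pattern, Ccl3 in the window and Gpnmb at the start. Ccl3, a macrophage chemokine, had an H3K27ac peak in its window in all 4 NCD mice and in no HFD mouse, with folds of 4.24, 9.88, 4.58 and 4.63 in mice 1, 2, 4 and 5. The peak lay 648 to 814 bp beyond the 3′ end of the gene and not at its start. All 17 genes with this H3K27ac pattern by diet were present in NCD mice and none in HFD mice, and the HFD mice 7 and 10 have the shortest H3K27ac lists, with 3224 and 14511 peaks. Gpnmb, a marker of lipid-laden macrophages, had H3K4me3 at its start in all 4 cold mice and no warm mouse, with folds of 5.52, 5.51, 4.23 and 4.47 in mice 4, 5, 10 and 11. Warm mouse 1 had a peak inside the gene 3056 bp from the start. At starts, the same pattern by temperature held for 6 of 14232 genes (0.0422%), 5 of them in the cold direction. The adjusted p by the exact test was 1 for Ccl3 and for Gpnmb, and could not be lower with so few genes showing the pattern.

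Strength was compared by the percentile of a gene's highest fold among all protein-coding genes within a list, since folds depend on the depth of a list. This could be done for genes with a peak in at least 4 mice, which left Cd14, Cd68 and Tnf for H3K4me3 and Cd14 and Cd68 for H3K27ac. For Cd14 H3K4me3 in the window, the percentile was 67.2 on NCD and 60.1 on HFD, a difference of −7.16 points (95% interval −27.2 to 12.8), and 57.6 in warm and 69.7 in cold mice, a difference of 12.1 (−7.86 to 32.1), n = 4 mice a group. For Cd68 H3K4me3, cold minus warm was −16.0 points (−36.0 to 4.05), and for Tnf 7.49 (−5.52 to 20.5). These window values are mostly those of neighbouring genes. The highest H3K4me3 peak was at Mpdu1 or Eif4a1 for Cd68 in 8 of 8 mice, at Tmco6 for Cd14 in 6 of 8, and in the flank beside Ltb and Mir6973a for Tnf in 6 of the 7 mice with a peak. At their own starts, cold minus warm was 2.20 points for Cd14 (−15.5 to 19.9) and 11.0 for Tnf (−2.19 to 24.2), with adjusted p of 0.974 and 0.840 in limma. None of the window differences passed limma's test after adjustment, with adjusted p of 0.800 or more for each marker, mark and factor, and 0.118 was the smallest unadjusted p.

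For H3K27ac in the window, Cd68 stood at percentile 85.2 on NCD and 67.0 on HFD, a difference of −18.2 points (−43.5 to 7.16), and Cd14 differed by −7.05 (−28.9 to 14.8). Mouse 7, an HFD mouse, had no H3K27ac peak at either. Cold minus warm was 12.7 points for Cd14 (−9.12 to 34.6) and 5.22 for Cd68 (−20.1 to 30.5). The highest H3K27ac peak was at Tmco6 for Cd14 in 3 of 7 mice and at Mpdu1 or Eif4a1 for Cd68 in 7 of 7. With peaks at the start alone, Cd14 H3K27ac stood at the 68.5th to 89.9th percentile in the cold NCD mice and at 84.1 and 62.8 in the cold HFD mice. The warm mice 2 and 8 stood at 73.0 and 63.0, and mice 1 and 7, without a peak, at 33.1 and 48.1, the rank of unmarked genes. Cold minus warm was 22.0 points (−2.08 to 46.2), with an adjusted p of 0.986 in limma. Unmarked genes hold a higher percentile in a shorter list, 45.4 in the window for mouse 7 against 20.4 for mouse 11 in H3K27ac, so this measure moves with list length.

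Across all genes, limma called 3 of 15195 for H3K4me3 by diet (0.0197%) and 1 by temperature (0.00658%), and 4 of 11747 for H3K27ac by temperature (0.0341%). H3K27ac by diet and both interactions gave 0 (0%), with 731, 569 and 504 genes at an unadjusted p under 0.05 for H3K27ac by diet, the H3K4me3 interaction and the H3K27ac interaction. These counts moved with single libraries. Without mouse 8, the H3K27ac interaction gave 1044 calls, 1037 of them higher, H3K27ac by diet 19 and by temperature 7, and H3K4me3 15 by diet and 4 by temperature. Without mouse 5 the H3K27ac interaction gave 14. H3K4me3 by diet gave 0 without mouse 2, 4, 10 or 11, 1 without mouse 7 and 2 without mouse 1 or 5. H3K4me3 by temperature gave 0 without mouse 1, 2, 4, 5 or 10, and H3K27ac by temperature 0 without mouse 2 or 7. No marker was among the calls under any of these. No marker had an interaction past the threshold, with adjusted p of 0.992 or more in limma. The interaction estimate for Cd14 H3K4me3 in the window was 18.8 points (−21.9 to 59.6). At the start it was −0.834 for Cd14 (−37.6 to 36.0) and −28.9 for Tnf (−57.7 to 0.0378). The unadjusted p in limma for Tnf at the start was 0.0503. The median difference over all genes was −1.77 points by diet and 1.05 by temperature for H3K4me3, and −5.73 and 2.52 for H3K27ac.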

How the data were processed

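Brown adipose tissue of 8 mice was profiled for 4 histone marks. According to the methods, the authors filtered reads with cutadapt, aligned them to GRCm38 with bowtie2 and called peaks with macs2 against the input of the same sample. The sources used here name no versions or thresholds. The 32 deposited lists, 1 per library, give for each peak a fold (a ratio of pileup to local background), −log10 p and −log10 q, and a score, and the lowest −log10 q in them was 1.30. The 8 inputs were not analysed here. Read depth is unknown, and list length was used to describe it.

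Genes and starts came from GENCODE M21 basic (GRCm38), and coordinates are 1-based. Promoter sequences are RefSeq's. A peak counted with an overlap of at least 1 bp of the gene body and 10 kb each side, or of 1 kb each side of a start. Presence was tested with Fisher's exact test (scipy 1.17.1) and percentiles with limma 3.58.1 (R 4.3.3, additive in diet and temperature, trended variance), adjusted by Benjamini-Hochberg over all genes tested within a mark. Both were run on simulated data with planted differences, as a check of the code. In the presence simulation the planted genes met the rule by construction, and power is not reported here. No test between the groups of these libraries is described in the methods. Samples were grouped by the diet, temperature and mouse number in their labels.

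The 10 genes and the other lists were chosen with earlier results of these data known. Named were all 10 genes, from each other list at most the 4 genes with H3K4me3 at the start in most mice, list genes of macrophages or inflammation present in all mice of a group and none of the other, and neighbours with a start at a peak. An item that this rule names is not reported here. Spi1, Laptm5, Neurog2 and Syn1 were named after their values were seen. The alternatives were other windows, thresholds, overlaps, list lengths, ranked measures and filters, a covariate for list length, and leaving out each mouse. Summit position and lists of equal length were added after seeing the data, as were the motifs.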

Additional observations from a re-analysis of the deposited data

Results flagged for a closer look

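Single mice were compared with the rest of their group by the gap to the nearest value relative to the range (Dixon's 95% limits), over 65 overlapping groups of 4 or 8 mice, of which 9 passed. Chance flags about 1 in 20 groups, and counts that tie in the other mice pass at once.

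Mouse 7, with the shortest H3K27ac list, had 0 of the 10 macrophage markers with H3K27ac in the window, and the next lowest mouse had 2, both among all 8 mice and among the warm mice. Of all protein-coding genes, 9.14% had H3K27ac in the window in mouse 7, against 32.7% to 59.2% in the other mice. In mouse 7, Tnf H3K4me3 stood at percentile 23.5, the rank of unmarked genes, with the next at 34.4. Cd68 H3K4me3 stood at 86.9 there, above 74.0 in the next HFD mouse, from the peak at Mpdu1. The part of list length in these values was not tested.

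Mouse 8 stood at percentile 47.6 for Cd14 H3K4me3 at the start, with the next warm mouse at 61.7, and had 2 markers with H3K4me3 at the start against 1 in the other warm mice. Mouse 10 had 1 such marker against 3 in the other cold mice. Mouse 11 had 3 markers with H3K27ac in the window against 2 in the other cold mice, and mouse 5 had 4 with H3K4me3 in the window against 3 in the other NCD mice.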

How the results depend on the processing

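In the window, H3K4me3 was found at 5 macrophage markers, H3K27ac and H3K4me1 at 3 each and H3K27me3 at 1. The shares of all protein-coding genes with such a peak in at least 1 mouse were 73.8%, 63.2%, 52.6% and 13.6%, in that order. The count of markers became 2 for H3K4me3 and 1 for H3K4me1 with the 10000 highest peaks of each list. With 50 kb each side it was 5 for H3K27ac, 6 for H3K4me1 and 2 for H3K27me3. At starts, by overlap or, added after seeing the data, by summit, it was 4 for H3K4me3, 1 for H3K4me1 and 0 for H3K27me3. With −log10 q of at least 5 it was 1 for H3K4me1 and 0 for H3K27me3, while Csf1r lost H3K4me3 and Tnf lost H3K27ac. With gene bodies alone it was 0 for H3K27me3, and Trem2 lost H3K4me1. Other small changes are not listed. The count of markers present in all mice of one group only stayed at 0 under the alternatives run, except 1 by temperature for H3K27ac with gene bodies alone (Cd68). No marker was called by limma under any alternative, the smallest adjusted p being 0.0702.

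Of 180 values of single markers under other settings, 6 changed sign. At starts the interaction was −8.20 points for Cd14 H3K27ac, −0.834 for Cd14 H3K4me3 and −28.9 for Tnf H3K4me3, and the diet difference for Tnf H3K4me3 was 1.76. The temperature difference for Cd68 H3K27ac ran from −2.36 without mouse 7 to 9.33 when single mice were left out, and the diet difference for Cd68 H3K4me3 from −0.984 without mouse 4 to 8.83. The causes were not tested. No H3K27me3 list reaches 10000 peaks, so that setting gave no value for it. No paired analysis was possible because the groups compared share no mouse numbers.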
